A study of Rattus norvegicus with 113 samples.

Results

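Neuronal injury and regrowth genes were followed here as 8 rat genes, Atf3, Jun, Sox11, Gap43, Sprr1a, Gal, Gadd45a and Stmn2. They were found by matching the RefSeq accession of each probe to these symbols, which gave 12 probes of the 56688 on either array design and 8 of the 16691 genes that could be named. The arrays held RNA from the hippocampus or the injured-side cortex of adult male Sprague-Dawley rats. TBI rats received a parasagittal fluid percussion injury, which the sample labels call moderate and the methods severe, sham rats had the same anaesthesia and surgery without the injury, and naive rats had neither. Tissue was taken 24hr, 2wk, 3mo, 6mo or 12mo later, with 4 rats in each group except hippocampus 24hr, which had 2 sham rats, 3 TBI rats and no naive rats. The cortical samples were small snips near the injury.

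When an axon is cut or stretched, its neuron switches from signalling toward growth. Stress kinases activate Jun and induce Atf3, transcription factors that pair with each other and with Fos family members at AP-1 sites. Sox11 is a developmental transcription factor that is re-expressed in regrowing neurons. Gap43 and Stmn2 act in the growth cone, on the membrane skeleton and on microtubules, while Sprr1a promotes axon outgrowth. Gal encodes the neuropeptide galanin, and Gadd45a responds to DNA damage and other stress.

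Promoter sequences are shown for Sprr1a, Gal and Gadd45a, which rose in the injured hippocampus at 24hr. Atf3 and Jun rose there too, but no promoter sequence was available for them. Each run is the 250 bases before the gene start, 5′ to 3′ on the gene's own strand, from RefSeq on build GRCr8, with motif matches in capitals. The motifs searched on both strands were AP-1 (TGAGTCA or TGACTCA), the core letters of the cAMP response element (TGACG or CGTCA) and the TATA box (TATAAA or TTTATA).
Sprr1a, chr2:180752626-180752875, minus strand: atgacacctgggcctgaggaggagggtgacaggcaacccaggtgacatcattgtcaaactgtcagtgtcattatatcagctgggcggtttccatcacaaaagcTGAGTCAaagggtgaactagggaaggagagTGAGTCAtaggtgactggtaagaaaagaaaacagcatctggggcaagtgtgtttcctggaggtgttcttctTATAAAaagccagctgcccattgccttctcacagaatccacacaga
Gal, chr1:210084573-210084822, minus strand: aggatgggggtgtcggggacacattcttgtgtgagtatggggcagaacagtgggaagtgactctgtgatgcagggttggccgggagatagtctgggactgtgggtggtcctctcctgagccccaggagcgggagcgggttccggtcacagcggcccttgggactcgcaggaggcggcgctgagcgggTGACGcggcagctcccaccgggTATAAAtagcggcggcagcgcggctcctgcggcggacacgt
Gadd45a, chr4:97486800-97487049, minus strand: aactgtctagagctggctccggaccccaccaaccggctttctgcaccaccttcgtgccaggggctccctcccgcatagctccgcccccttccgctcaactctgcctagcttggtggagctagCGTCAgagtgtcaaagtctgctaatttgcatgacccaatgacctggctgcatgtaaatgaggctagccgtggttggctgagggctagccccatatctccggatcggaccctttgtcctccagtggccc
The Sprr1a promoter held the AP-1 letters at 2 places, starting 147 and 117 bases before the gene start. AP-1 letters were present in 4.05% of 33469 rat promoters of the same length. The Gal and Gadd45a promoters each held the core letters of the cAMP response element, which 18.2% of promoters held, and Sprr1a and Gal held the TATA letters, which 12.9% held. Sox11 was also in the promoter table, and none of these letters was found in its 250 bases. A match is a description of the letters only.

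All levels below are log2 fluorescence of a gene's brightest probe minus the median of that array, and levels of different genes cannot be ranked against each other. Hippocampus at 24hr and 3mo was run on a smaller array design, and its levels are not set against other intervals. Between 41.3% and 93.0% of probes per array were well above background. The highest share belonged to cortex sham 2wk replicate 3, which stood apart from every other array in most members. The test of Atf3 at 2wk in the cortex is given with and without it. A gene was called different when limma's p, adjusted over all probes tested, was under 0.05, and a gene entered a test only if it was well above background on every array of at least 1 group compared. TBI and sham arrays shared slides in the hippocampus at 2wk, 3mo and 12mo and in the cortex at 3mo and 12mo. At the other intervals slide and injury cannot be told apart. The 113 arrays measure whole tissue, in which fewer cells of a type and less RNA per cell cannot be told apart.

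The injured hippocampus at 24hr showed the clearest response. Atf3, Gadd45a, Sprr1a, Gal and Jun were higher after TBI than after sham surgery, 5 of the 7 members that could be tested, while 5.65% of all 16737 probes tested were called higher and 13.7% in either direction. The TBI arrays lay above both sham arrays in 5 of these members and in 23.0% of all probes. Sprr1a entered this count only through its TBI arrays, and 4 members were called when a probe had to be well above background in both groups. With no filter 0 members were called (adjusted p = 0.068 for Atf3 and for Gadd45a), with all arrays of the tissue in 1 fit 2, and with a replicate block 3. Gap43 and Stmn2 were not called, and Sox11 was too dim to test.

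Atf3, the stress-induced transcription factor, stood at 0.06 and 0.31 in the 2 sham hippocampi and at 2.92, 3.38 and 2.61 in the 3 TBI hippocampi. The groups did not overlap, and the difference was 2.78 ± 0.25 (SE) on the log2 scale, a 6.87-fold rise (adjusted p = 0.00387). Gadd45a, the growth arrest and DNA damage gene, read 1.90 and 2.12 after sham surgery and 4.32, 4.99 and 4.35 after TBI. Its rise of 2.54 ± 0.24 was 5.83-fold (adjusted p = 0.0044).

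Sprr1a, the outgrowth-promoting protein, was not well above background in either sham hippocampus and read 0.34, 0.73 and 2.01 after TBI. Set against the background bound of the sham arrays, the rise was at least 5.97-fold (adjusted p = 0.0226, in a test that it entered only because the TBI arrays were bright). The 3 TBI arrays differed from each other more in Sprr1a than in Atf3. Jun, the AP-1 subunit, was at 3.37 and 3.52 after sham surgery and at 4.02, 4.19 and 4.09 after TBI. That rise was small, 0.66 ± 0.14 or 1.58-fold (adjusted p = 0.0314), and leaving out any of the 5 arrays ended the call.

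Gal, the galanin gene, was at 3.79 and 3.72 in sham hippocampi and at 5.46, 5.21 and 4.41 in TBI hippocampi. The difference was 1.27 ± 0.31, 2.41-fold (adjusted p = 0.0465), and a further Gal probe on this design gave 1.19 ± 0.27 (adjusted p = 0.037). Leaving out 1 array ended the call of Gal in 4 of 5 cases and of Sprr1a in 2 of 5, but never that of Atf3 or Gadd45a. The sham and TBI arrays at this interval were on different slides, so slide and injury cannot be told apart.

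The growth cone members were not called. Gap43 read 7.73 and 6.92 after sham surgery and 7.64, 7.73 and 7.94 after TBI, a difference of 0.45 with a 95% interval from -0.17 to 1.07 (adjusted p = 0.28). Stmn2 read 7.58 and 7.60 against 7.48, 7.36 and 7.39, a difference of -0.18 with an interval from -0.50 to 0.14. All 3 TBI values of Stmn2 lay below both sham values, although the difference was not called. With so few arrays the groups failed to overlap in a large share of all probes, so this ordering does not set Stmn2 apart. A further Stmn2 probe on this design gave -0.48 ± 0.14 (unadjusted p = 0.0123, adjusted p = 0.0692). Sox11 was not well above background in either sham hippocampus and was so in 2 of the 3 TBI hippocampi, at -0.47 and -0.72.

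**Figure D1:**
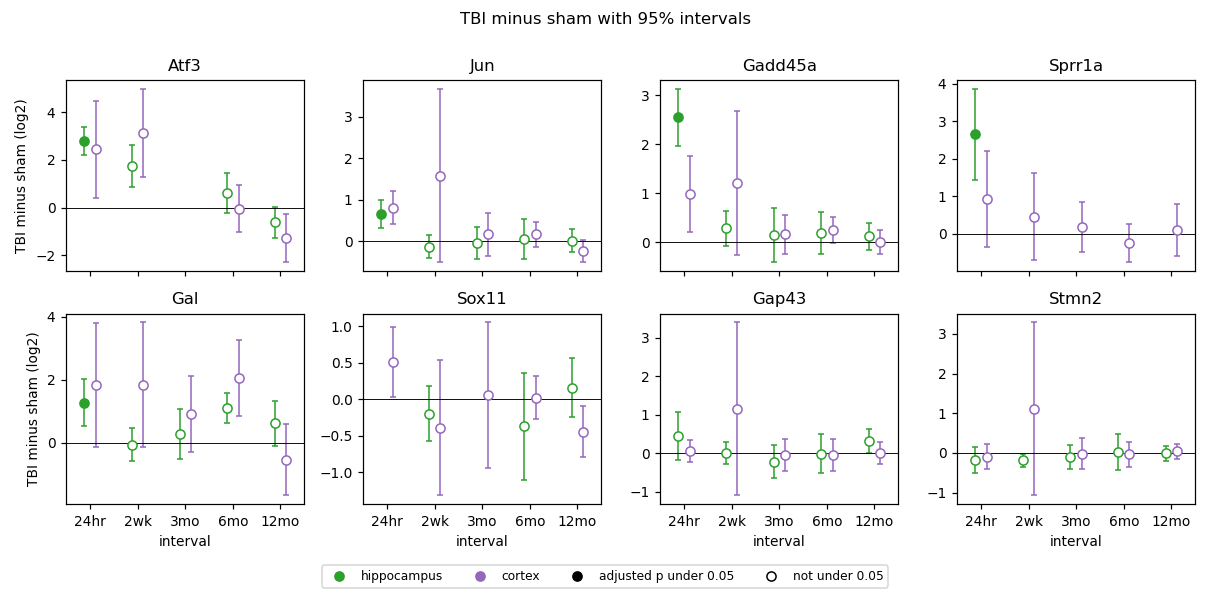
TBI minus sham difference (log2, y axis) of each member at each interval (x axis) in hippocampus (green) and cortex (purple), with 95% intervals; filled points have an adjusted p under 0.05, members that were too dim to test have no point, and y axes differ between panels. The 5 filled points are all in the hippocampus at 24hr, and the wide cortical intervals at 2wk include sham replicate 3.

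Genes that act with the members moved in part at 24hr in the hippocampus. Of 12 AP-1 and ATF partners, 9 were tested and 3 rose, namely Fosl1 by 4.29 ± 0.44, Batf by 2.38 ± 0.32 and Fos by 1.31 ± 0.27. The median of that list was 0.39, against 0.01 over all named genes, of which 11.9% were called in either direction. Among 10 other regeneration-associated transcription factors tested, 4 rose and 1 fell. Cebpd, an inflammatory regulator, rose by 1.75 ± 0.42 and Myc by 1.17 ± 0.23, while the activity-dependent factor Egr1 fell by 1.00.

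Both sister genes of Gadd45a rose, Gadd45g by 1.88 ± 0.25 and Gadd45b by 1.27 ± 0.29, while the cell cycle inhibitor Cdkn1a fell by 0.56. These were the only calls among 9 genes tested in the list of Gadd45 family, p53 and stress targets. Of 15 growth cone and microtubule genes tested, 2 rose and 1 fell. The tubulins Tubb6 and Tubb2b rose by 4.75 ± 0.34 and 1.05 ± 0.13, and the adhesion molecule Ncam1 fell by 0.99. The axon injury kinase list had no call among 9 genes tested by limma, and among 11 neuropeptide and galanin receptor genes the only call was a fall of somatostatin, Sst, by 1.48.

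The list of other injury-induced genes had the highest median of these lists, 2.37, with 10 of 14 genes tested higher and 1 lower. The protease inhibitor Timp1 rose by 5.04 ± 0.33, the small heat shock protein Hspb1 by 4.79 ± 0.53 and the muscle LIM protein Csrp3 by 3.74 ± 0.45. Ecel1, a neuronal endopeptidase, was also called, rising by 2.47 ± 0.42. Other cell types moved at the same time. Of 8 microglia and macrophage markers, 3 rose, and their mean level ranged from 2.55 to 3.19 in sham and from 3.83 to 4.57 in TBI hippocampi. Of 9 neuron markers 1 fell, with a mean level of 4.07 to 4.16 in sham and 3.88 to 4.04 in TBI hippocampi. The part of these cell types in the member differences was not tested.

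**Figure D2:**
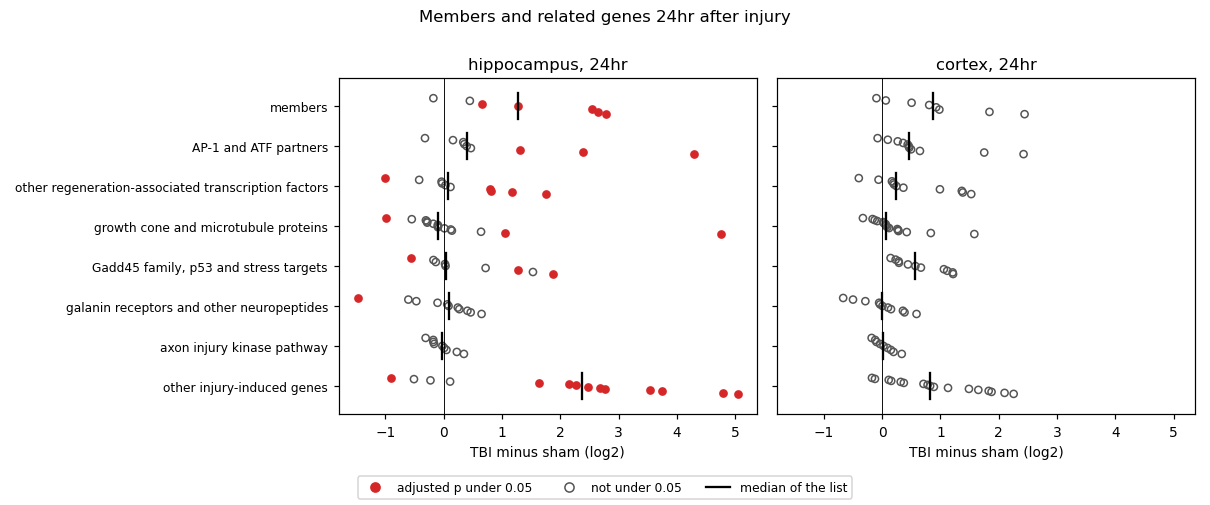
TBI minus sham difference at 24hr (log2, x axis) of every tested gene in the members and in 7 related lists (rows), for hippocampus (left) and cortex (right); red points have an adjusted p under 0.05 and black bars mark list medians. In the hippocampus 5 of 7 members and 10 of 14 other injury-induced genes lie to the right as red points, and no gene of these lists is red in the cortex.

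In the cortex at 24hr no member was called against sham by limma, although 4 of 8 had an unadjusted p under 0.05, as 20.8% of all probes did, and 0.286% of 25866 probes were called in either direction. The injured rats did not respond alike. Atf3 read 3.64, -0.09, 0.59 and 4.96 in the 4 TBI cortices, against -0.68, 0.45, -1.28 and 0.82 after sham surgery and -0.81, -1.39, -1.06 and -0.81 in naive cortex. TBI replicates 1 and 4 were far above every control, and replicates 2 and 3 lay within the sham range. The difference from sham was 2.44 ± 0.93 (adjusted p = 0.164).

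TBI replicates 1 and 4 were also the highest in Gadd45a, Gal, Jun and Sox11, while in Sprr1a replicates 4 and 2 were. Gadd45a was 6.02, 5.27, 4.45 and 6.35 in TBI cortices and 4.79, 4.74, 3.93 and 4.71 in sham cortices, a difference of 0.98 ± 0.35 (adjusted p = 0.147). Gal was 6.35, 3.33, 4.35 and 6.70 after TBI and 1.92, 4.37, 2.88 and 4.19 after sham surgery (difference 1.84 ± 0.91, adjusted p = 0.272). Jun was 5.17, 4.64, 4.89 and 5.65 after TBI and between 4.22 and 4.31 after sham surgery. Jun was the only member at this interval whose TBI cortices all lay above the sham cortices, as 11.1% of all probes did, with a difference of 0.81 ± 0.18 (adjusted p = 0.0696).

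Sprr1a was well above background in all cortices and reached 3.84, 4.63, 1.87 and 5.10 after TBI, against 3.96, 2.83, 2.17 and 2.78 after sham surgery. Sox11 was 1.63, 0.85, 0.65 and 1.76 after TBI and between 0.61 and 0.83 after sham surgery. Gap43 and Stmn2 were not called, with differences of 0.06 (95% interval -0.23 to 0.36) and -0.10 (-0.41 to 0.22). The direction of these 2 differences turned with the scaling or the background correction.

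The microglia and macrophage markers averaged 5.31, 4.66, 4.38 and 5.29 in TBI replicates 1 to 4 and between 3.18 and 4.47 in sham cortices, so the highest values were again in replicates 1 and 4. The neuron markers averaged 6.03, 6.73, 6.40 and 6.27 in the same order. The part of these cell types in the member differences was not tested. Leaving out TBI replicate 3, which had the lowest Gadd45a, Sprr1a and Sox11 of its group, called Jun, Sprr1a and Gadd45a (0.87, 1.59 and 1.34, with adjusted p from 0.0367 to 0.0491). The other 7 of the 8 fits without 1 array called no member. Leaving out an array with low values raises the group mean by construction, and this array was singled out after its values were seen. The TBI arrays were on another slide than the sham and naive arrays, so slide and injury cannot be told apart.

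Naive cortex gave a further control at 24hr, with the same TBI arrays. Atf3 was higher after TBI by 3.29 ± 0.93 (adjusted p = 0.0329), Gal by 3.00 ± 0.91 (adjusted p = 0.0419, although naive replicate 1, at 4.52, lay within the TBI range), Gadd45a by 1.19 ± 0.35 (adjusted p = 0.0396) and Jun by 0.63 ± 0.18 (adjusted p = 0.0345). These 4 of 8 members compare with 6.35% of 25938 probes called higher. Atf3 entered the tests against naive and against sham at this interval only through its TBI arrays, as some control arrays were near background. Of the cell type markers against naive, 5 of 8 microglia and macrophage markers rose (Cd14 by 3.73 ± 0.70), Gfap and Vim of the astrocyte markers rose by 2.89 ± 0.52 and 2.08 ± 0.32 while Aldh1l1 and S100b fell, and S100a9 and S100a8 of the blood markers rose by 3.85 and 3.82. The neuron markers Nefm, Rbfox3 and Syn1 fell, 3 of 10. Nefm, Rbfox3, Syn1, Aldh1l1 and S100b were also called lower in sham than in naive cortex, and Gfap and Vim higher. The 5 microglia and macrophage markers, S100a9 and S100a8 were not called higher there. The part of these cells in the member differences was not tested. Leaving out 1 array moved the number of members called between 0 and 5. It was 0 without any of naive replicates 2, 3 and 4 or of TBI replicates 1 and 4, and 2 without naive replicate 1. The TBI and naive arrays were on different slides, and slide and injury could not be separated. No member was called between sham and naive cortex at 24hr, where 19.1% of 23816 probes were called and no member had an unadjusted p under 0.05, as 34.7% of all probes did.

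**Figure D3:**
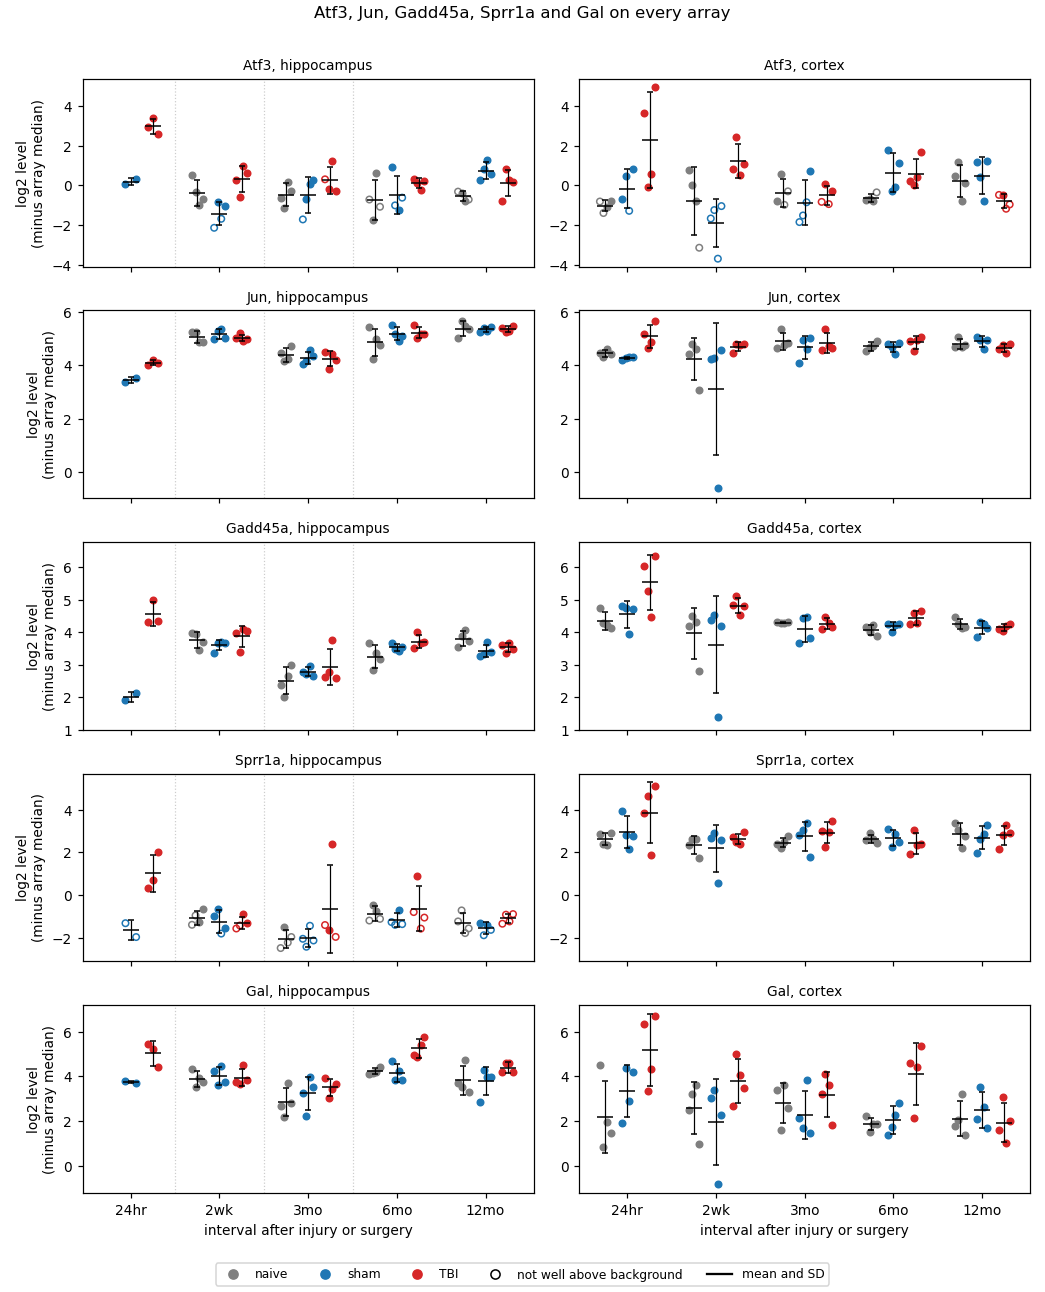
Level of Atf3, Jun, Gadd45a, Sprr1a and Gal on every array (log2 minus the array median, y axis) by interval (x axis) in hippocampus (left) and cortex (right), with naive in grey, sham in blue and TBI in red, means with SD in black, and open circles for probes not well above background. Dotted lines set off hippocampus 24hr and 3mo, which used another array design and, for Sprr1a, another probe. Cortex TBI 24hr spreads from -0.09 to 4.96 in Atf3.

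The TBI effects in the 2 tissues were compared directly. No member's effect differed between hippocampus and cortex at any interval by limma, in fits that took the 2 tissues as independent. At 24hr 1 of 7 members compared had an unadjusted p under 0.05, namely Gadd45a, whose effect was greater in the hippocampus by 1.56 ± 0.55 (unadjusted p = 0.0119, adjusted p = 0.144), while 3.49% of 13287 probes were called and 16.9% had an unadjusted p under 0.05. The interval for Atf3 at 24hr ran from -2.60 to 3.28, and for Gal from -3.47 to 2.32, and differences within those bounds were not detectable. Sprr1a had no probe common to both designs and could not be compared at 24hr.

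At 2wk Atf3 was the member that stood apart. In the hippocampus it read -2.13, -0.84, -1.68 and -1.02 after sham surgery and 0.28, -0.57, 0.95 and 0.64 after TBI. The TBI hippocampi all lay above the sham hippocampi, as in 2.56% of all probes, and the difference of 1.74 ± 0.40 narrowly missed the threshold (adjusted p = 0.0523), with 1.91% of 25106 probes called. Atf3 entered this test only through its TBI arrays, because it was not well above background on every sham array. Naive hippocampi read 0.51, -0.34, -0.97 and -0.69 and overlapped the TBI group. The difference of sham from naive was -1.04 ± 0.40 (adjusted p = 0.125). No member was called at 2wk in the hippocampus by limma, and 2 had an unadjusted p under 0.05, as 24.4% of all probes did.

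In the cortex at 2wk Atf3 read 0.84, 2.42, 0.51 and 1.099 after TBI, while none of the 4 sham cortices was well above background. Set against the mean background bound of the 4 sham arrays, the rise was 4.06-fold. That bound includes replicate 3 and was not computed without it, so the fold is not a safe lower limit. The difference was not called (adjusted p = 0.399), and 0.00848% of 23578 probes were. Sham replicate 3 lay below the other sham cortices in Jun, Gap43, Sprr1a, Gadd45a and Stmn2. Over the probes tested, the median difference was 0.95, higher in TBI than in sham. Without that array the median was 0.01 and Atf3 passed the threshold (adjusted p = 5.13e-05). Atf3 entered that test only through its TBI arrays, the sham arrays give only a bound, and the array was singled out after its values were seen. Naive replicate 1, at 0.79, lay within the TBI range, and the other 3 naive cortices, between -3.14 and 0.00, lay below it.

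Microglia and macrophage markers were also high at 2wk. In the hippocampus 6 of 8 rose, Cd68 by 2.70 ± 0.42, and their mean level was 3.01 to 3.28 in sham and 3.72 to 4.93 in TBI hippocampi. The part of these cells in the Atf3 difference was not tested. Of the related lists, 3 genes were called between TBI and sham at 2wk in the hippocampus. The microtubule protein Map1b fell by 0.46 against sham, where sham was itself above naive by 0.39 ± 0.08, the kinase scaffold Mapk8ip3 fell by 0.31, and Socs3, a feedback inhibitor of cytokine signalling, rose by 1.03 ± 0.15.

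At 3mo no member was called in either tissue by limma, and none had an unadjusted p under 0.05. Among hippocampal probes 0.0134% were called and 5.61% had an unadjusted p under 0.05, and among cortical probes 0% and 4.13%. One TBI hippocampus, replicate 3, was unlike its group. It read 2.40 for Sprr1a, where the other 3 lay between -1.94 and -1.38, 1.55 for Sox11, where they lay between -1.32 and -1.30, and 3.74 for Gadd45a, where they lay between 2.58 and 2.76. Its Atf3, 1.21, was also the highest of the 12 hippocampi at 3mo. Gap43 and Stmn2 on that array, 7.50 and 8.06, were within the range of the other TBI hippocampi. Its microglia and macrophage markers averaged 2.54 and those of the other 3 between 2.28 and 2.49.

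At 6mo the member that stood out was Gal. TBI hippocampi read 4.94, 4.89, 5.42 and 5.75, above all 4 sham hippocampi, as in 7.58% of all probes (4.68, 3.84, 4.22 and 3.84) and all 4 naive hippocampi (4.12, 4.14, 4.21 and 4.42). The difference from sham was 1.11 ± 0.23 (unadjusted p = 9.4e-05, adjusted p = 0.301), where 0.0134% of 22347 probes were called. Against naive it was 1.03 ± 0.23 (adjusted p = 0.0141), where 3.77% of 22233 probes were called, and that call was lost without TBI replicate 4, with 75th percentile scaling, quantile normalization, the authors' value table or no filter. Against naive the astrocyte markers Gfap and Vim rose by 1.38 ± 0.30 and 1.20 ± 0.20, the cortex markers Tbr1 and Lamp5 by 2.28 ± 0.26 and 1.16 ± 0.28, and the neuron markers Slc17a7 and Snap25 by 0.85 ± 0.24 and 0.78 ± 0.21. Tbr1, Slc17a7 and Snap25 were also called higher in sham than in naive hippocampus, while Gfap, Vim and Lamp5 were not. The part of these markers in the Gal difference was not tested. The TBI arrays were on another slide than both controls, so slide and injury cannot be told apart.

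In the cortex at 6mo Gal read 4.59, 2.12, 4.40 and 5.34 after TBI, 1.38, 1.74, 2.26 and 2.80 after sham surgery and between 1.52 and 2.20 in naive rats. In the TBI group, 3 of 4 cortices exceeded every control and replicate 2 did not. The difference from sham was 2.07 ± 0.55 (adjusted p = 0.232, with 0.0805% of 24856 probes called), and without replicate 2 it was called at 2.73 (adjusted p = 0.0082). Replicate 2 had the lowest Gal of its group, so leaving it out raises the mean by construction. The other 7 of the 8 fits without 1 array did not call Gal. Animal numbers on the deposited files match between the tissues at this interval, so the tissues may not be independent.

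Other cell types moved beside Gal at 6mo. Choroid plexus markers averaged 1.83, 3.13, 1.150 and 1.504 in TBI cortices 1 to 4 and between -0.58 and 0.46 in sham cortices, and Folr1 of that list rose by 4.28 ± 0.38. Replicate 2, which had the lowest Gal of the TBI cortices, had the highest choroid plexus markers. Astrocyte markers, like Gal, were lowest in replicate 2 (6.71) and highest in replicate 4 (7.72) of the TBI cortices. Replicates 1 and 3 stood in the opposite order to Gal in these markers. The astrocyte markers averaged between 6.76 and 7.18 in sham cortices and between 6.65 and 6.89 in naive cortices. Hippocampus markers averaged 5.09, 3.07, 3.65 and 3.42 in TBI cortices 1 to 4 and between 3.20 and 4.15 in sham cortices. Microglia and macrophage markers averaged 3.26, 3.57, 4.004 and 4.51 in TBI cortices, between 3.26 and 3.60 in sham cortices and between 3.37 and 4.45 in naive cortices. In the hippocampus the meninges and fibroblast markers averaged 2.48 to 2.67 in sham and 2.86 to 3.65 in TBI rats. Hypothalamic markers averaged 0.92 to 1.69 in sham and 1.24 to 1.44 in TBI hippocampi, and Oxt was not well above background on any of these arrays. The part of these tissues in the Gal difference was not tested.

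At 12mo no member was called between TBI and sham by limma in either tissue. In the hippocampus 1 of 7 members tested had an unadjusted p under 0.05 as had 15.6% of all probes, and in the cortex 2 of 8, as had 6.08%. In both tissues 0% of all probes were called. The cortical Atf3 was lower after TBI, with -0.48, -0.51, -1.18 and -0.96 against 1.16, 0.42, -0.81 and 1.21 after sham surgery (difference -1.28 ± 0.47, adjusted p = 0.804). Only 1 of the 4 TBI cortices was well above background for Atf3. The Gap43 difference in the hippocampus was 0.32 (95% interval 0.02 to 0.63, adjusted p = 0.305).

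Sham surgery was compared with naive animals to see what handling and surgery did without injury. Over 9 such comparisons the only member called was Atf3 in the hippocampus at 12mo. It read 0.28, 0.84, 1.29 and 0.55 after sham surgery and -0.31, -0.37, -0.77 and -0.71 in naive rats, a difference of 1.28 ± 0.30 (adjusted p = 0.0406), where 3.30% of 25303 probes were called. The sham hippocampi all lay above the naive ones, as in 7.04% of all probes, and leaving out 1 array ended the call in 6 of 8 cases. Atf3 entered this test only through its sham arrays, because it was not well above background on every naive array. The sham and naive arrays were on different slides, so slide and surgery cannot be told apart. TBI hippocampi at 12mo, at -0.76, 0.84, 0.28 and 0.15, overlapped both. In the cortex at 6mo Atf3 was between -0.28 and 1.80 in sham rats and between -0.81 and -0.35 in naive rats (difference 1.29 ± 0.45, adjusted p = 0.479).

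**Figure D4:**
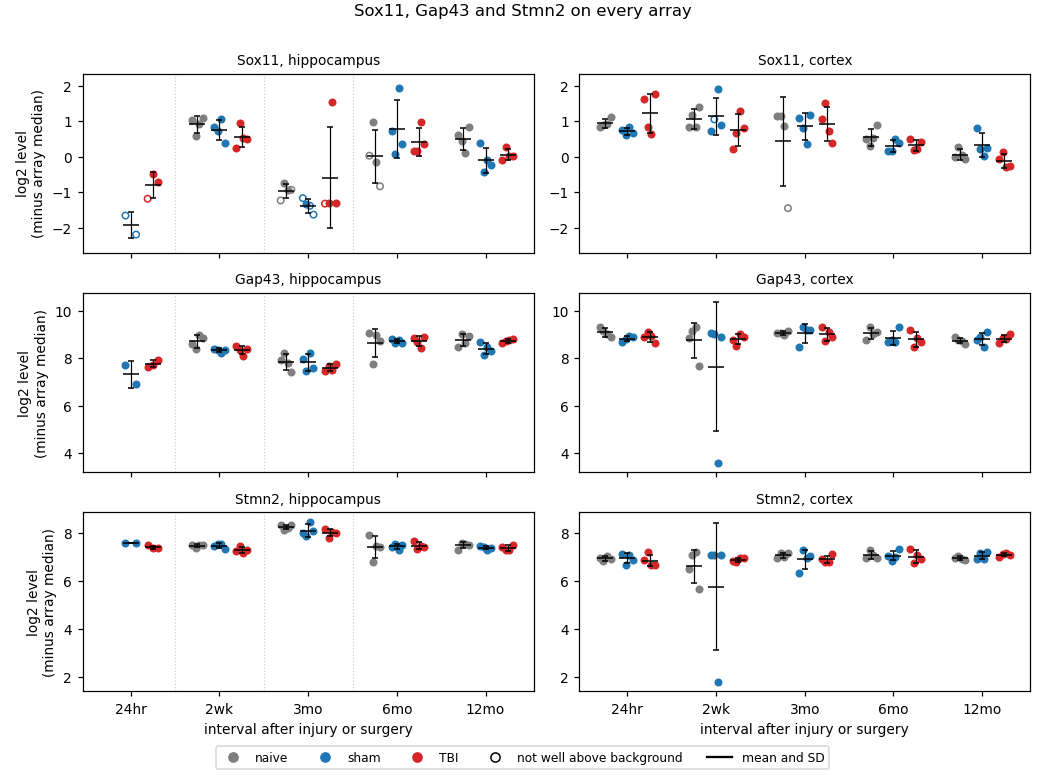
Level of Sox11, Gap43 and Stmn2 on every array (log2 minus the array median, y axis) by interval (x axis) in hippocampus (left) and cortex (right), with naive in grey, sham in blue and TBI in red, means with SD in black, and open circles for probes not well above background. Dotted lines set off hippocampus 24hr and 3mo, which used another array design. Cortex sham 2wk replicate 3, at 3.58 in Gap43 and 1.81 in Stmn2, lies far below all other arrays.

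Gap43, Stmn2 and Sox11 were never called between TBI and sham. Gap43 and Stmn2 were tested in all 10 comparisons and Sox11 in 8. Apart from cortex at 2wk, the 95% intervals for the brightest Stmn2 probe lay within -0.50 and 0.47 in every comparison of TBI with sham. The further probe of the smaller design, at -0.48 ± 0.14 in the hippocampus at 24hr, was lower than that probe. On the larger design Gap43 ranged from 7.77 to 9.08 over 36 hippocampi, with a median of 8.65, and the median over 60 cortices was 8.91. Its counterpart on microtubules, Stmn2, had a hippocampal median of 7.44 and a cortical median of 6.97.

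The uninjured tissues differed in several members. Sprr1a was well above background in only 4 of 12 naive hippocampi on the larger design, at levels from -1.76 to -0.43, and in all 20 naive cortices, at levels from 1.76 to 3.40. At 12mo, where no naive hippocampus was well above background, the cortex was at least 9.11-fold higher. At 2wk and 6mo Sprr1a was called lower in the hippocampus, where some arrays give only a bound. Gal was higher in the hippocampus by 1.30 ± 0.41, 2.36 ± 0.30 and 1.72 ± 0.40 at the same intervals. Gadd45a was called lower in the hippocampus at 6mo and 12mo, with differences of -0.81 and -0.44. The Gal call at 2wk was lost in 6 of 8 fits without 1 array and under 5 of 10 other alternatives. Jun, Stmn2 and Sox11 were called higher there at 12mo only, and Sox11 lost its call in 6 of 8 and under 6 of 10. So 2, 3 and 6 members were called at 2wk, 6mo and 12mo, where 4.94%, 16.3% and 37.7% of all probes were. Sprr1a is in each of these counts. It entered the tests only through its cortical arrays, because it was not well above background on every naive hippocampus. At 6mo limma gave every probe the same standard error. The 2 tissues were always on different slides, so slide and tissue cannot be told apart. These fits also took the 2 tissues as independent, although animal numbers of naive rats match between them at 2wk, 6mo and 12mo.

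Group means on the larger design were ordered over 24 groups. Cortex TBI 24hr was highest in Atf3, Sprr1a, Gadd45a and Sox11, with an SD of 2.42 around a mean of 2.27 in Atf3. Gal was highest in hippocampus TBI 6mo at 5.25 ± 0.41 (SD, n = 4), followed by cortex TBI 24hr at 5.18 ± 1.61 (SD, n = 4), which does not differ from it beyond the spread. Of the 23 steps between neighbouring groups, the number larger than the greater of the 2 SDs was 0 for Atf3, Gap43, Gal and Gadd45a, 1 for Sox11, Sprr1a and Stmn2, and 2 for Jun.

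The genes most like each member were sought among 11951 named genes by Pearson's r over the same 24 group means, each taken as its difference from the mean of its tissue. For Atf3 these were Icam1 (r = 0.88), Capg (0.88) and Nfkb2 (0.86). For Gal they were A2m (0.89), S100a4 (0.88) and Cd44 (0.87), and for Gadd45a Mcl1, Mvp and Tpm4 (0.94 each, to 2 decimals). Sprr1a was most like Calcb (0.81), Rrm2 (0.79) and Ggn (0.78), and Sox11 most like Dll3 (0.78), Ceacam4 (0.77) and Igf2bp2 (0.76). Jun, Gap43 and Stmn2 had r of at least 0.95 with their nearest genes, Rab21, Arhgdig and Atp6v1b2, which fell to 0.84, 0.86 and 0.91 without the cortex sham 2wk group. The group means share arrays, slides and the same scaling, and these r values are descriptions.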

How the data were processed

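The arrays were 1-colour Agilent rat arrays of 2 designs, 96 of the larger (45598 probes) and 17 of the smaller (30367 probes, hippocampus 24hr and 3mo). The authors scanned them and deposited Agilent Feature Extraction 11.5.1.1 output, in which each spot has an intensity with background subtracted (the processed signal), and also a value table of linear normalized signal for each array. The genome build named in the file headers is that of the array design, and probes have no coordinates here. Genes were named by matching the probe accession to RefSeq, which named 46.3% of the probes on the larger design and 61.4% on the smaller.

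Spots marked as outliers were dropped (a median of 368 per array) and the other spots of a probe averaged. Log2 processed signal minus the array median was tested with limma 3.58.1 over all groups of a tissue and interval, with Benjamini-Hochberg adjustment over all probes tested. Each member was read from its brightest probe on the design, and every member was tested in each comparison in which it passed the filter. Of related lists, at most the 3 largest calls in each direction and comparison may be named. Ecel1 was chosen after its values were seen. The members and lists were chosen with earlier results of these data known. Another rule, a fold of at least 1.4 with an unadjusted p under 0.05, decided which differences were recomputed. Within a tissue each rat is 1 array, and 4 arrays per group limit the precision. The methods give 4 rats per group and interval for both tissues, so a rat may have given an array of each. The main fits between tissues took the 2 tissues as independent. No 2 arrays held identical values.

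Alternatives were 75th percentile scaling, quantile normalization, the authors' value table, normexp on the median signals (mean signals are not used here), no filter, a filter on both groups, only the groups compared, all arrays of the tissue, slide and replicate blocks, the mean of a gene's probes, and leaving out each array. Animal numbers carried by the deposited files match between the tissues at 2wk and 6mo and, for naive rats, at 12mo, which the sample labels do not state. Deviations of these pairs correlated with a mean r of 0.391 in TBI rats at 6mo and 0.333 in naive rats at 2wk, but 0.0671 in sham rats at 2wk and -0.185 in naive rats at 6mo, so the pairing is not borne out in every group. The fit was tested on simulated data.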

Additional observations from a re-analysis of the deposited data

Results flagged for a closer look

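Of 216 combinations of a member and a group of 4 rats, 16 (7.41%) held 1 array far from the other 3 by Dixon's test, where chance gives about 1 in 20. Of these, 5 were in cortex sham 2wk replicate 3, at -0.578 in Jun, 3.58 in Gap43, 0.575 in Sprr1a, 1.397 in Gadd45a and 1.81 in Stmn2 (log2 minus the array median), all below the other sham cortices. Hippocampus TBI 3mo replicate 3 was high in Sox11 (1.55), Sprr1a (2.40) and Gadd45a (3.74).

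The remaining 8 were spread over other arrays. Low arrays were cortex TBI 2wk replicate 1 in Jun (4.46), cortex naive 3mo replicate 4 in Sox11 (-1.45), cortex sham 3mo replicate 1 in Gap43 (8.47), hippocampus naive 2wk replicate 2 in Stmn2 (7.37), and, in Gadd45a, hippocampus sham 2wk replicate 1 (3.37), hippocampus TBI 2wk replicate 2 (3.39) and cortex sham 24hr replicate 3 (3.93). Cortex sham 6mo replicate 4 was high in Gap43 (9.31). No cause of these values was tested.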

How the results depend on the processing

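The number of members called was recomputed for each of 36 comparisons. Between TBI and sham in the hippocampus at 24hr, where 5 were called, it was 0 with no filter and 2 with all arrays of the tissue in 1 fit. At 2wk in the hippocampus it was 1 rather than 0 with 75th percentile scaling, the authors' value table or normexp. In the cortex at 24hr it was 2 with normexp and 1 with no filter, and at 2wk 1 with no filter and 4 with all arrays of the tissue. Between sham and naive hippocampus at 12mo the 1 call was 0 with normexp, the filter on both groups or all arrays of the tissue, and 2 with no filter. Between TBI and naive it went from 1 to 0 in the hippocampus at 6mo with 75th percentile scaling, quantile normalization, the authors' table or no filter. In the cortex at 24hr it went from 4 to 0 with no filter or only the groups compared and to 2 with all arrays of the tissue, and at 2wk from 0 to 2 with only the groups compared. Between naive tissues it was 1 at 2wk with no filter, the filter on both groups or all arrays, 5 at 6mo with quantile normalization, and 3 with no filter or 1 with all arrays at 12mo. The cause was not tested.

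Leaving out 1 array gave 2 to 4 members between TBI and sham in the hippocampus at 24hr and 0 to 1 at 2wk, and in the cortex 0 to 3 at 24hr, 0 to 1 at 2wk and 0 to 1 at 6mo. It gave 0 to 1 and 0 to 2 between sham and naive hippocampus at 2wk and 12mo. Between TBI and naive it gave 0 to 1 and 0 to 2 in the hippocampus at 2wk and 6mo, and 0 to 5, 0 to 1 and 0 to 1 in the cortex at 24hr, 2wk and 6mo. Between naive tissues it gave 1 to 2, 2 to 5 and 4 to 6 at 2wk, 6mo and 12mo. Where 1 sham hippocampus was left at 24hr, it was assumed to vary like the TBI group.

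The Gap43 difference in the cortex at 24hr reversed to -0.078 with 75th percentile scaling, -0.076 with quantile normalization, -0.078 with the authors' table and between -0.0067 and 0.1507 when 1 array was left out, and that of Stmn2 to 0.061 with normexp. Replicate numbers did not pair samples within a tissue, and the replicate block gave 3 members in the hippocampus at 24hr, with 518 probes called rather than 2286.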
